A study of Mus musculus with 6 samples.

Results

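The platelet-derived growth factor (PDGF) ligands and receptors were the 6 genes Pdgfa, Pdgfb, Pdgfc, Pdgfd, Pdgfra and Pdgfrb, chosen by their symbols out of 23494 genes. All 6 were present in each of 3 deposited single-cell count tables, which listed 22833 genes for the NG2 line, 21008 for the Tbx18 line and 19679 for the naïve cells of both lines. The study asked which cells in and around the vessels of the adult mouse cortex keep a mural identity and which take on other fates after a lesion. Cells that carried the red reporter tdTomato and excluded DAPI were sorted from the cerebral cortex, and 17033 of them were counted.

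There were 6 libraries, 1 for each combination of line and condition. The NG2 line was NG2-Cre-ERT2/Ai14-flx and the Tbx18 line was Tbx18-CreERT2/Ai14-flx, and all mice were 3 to 4 months old and had received tamoxifen, so that every group carried Cre activity and the reporter. The naïve libraries came from mice without injury. Mice with physical injury had received saline by intracerebral injection, and mice with ischemic injury had received endothelin-1 and L-NAME, which constrict vessels. Injured mice had tamoxifen 7 days before injury, and cells were taken 3 days after it. The NG2 driver is a transgene that is also active in oligodendrocyte progenitors, whereas the Tbx18 driver is expressed mainly by mural cells and fibroblasts, so each line returned only cells that carried its reporter. Even so, 1788 of the 3845 Tbx18 cells after physical injury and 1488 of the 2047 after ischemic injury lay in the endothelial cluster. Mice were pooled into each library. Condition and library therefore cannot be told apart, no comparison between libraries was tested, and every interval given here is a 95% interval that covers counting error only.

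PDGF ligands are secreted dimers that bind 2 receptor tyrosine kinases. PDGF-A and PDGF-C signal chiefly through PDGFRα, PDGF-D through PDGFRβ, and PDGF-B binds both. In the developing brain, endothelial PDGF-B draws pericytes that carry PDGFRβ onto capillaries, and PDGF-A supports the division of oligodendrocyte progenitors that carry PDGFRα.

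The cells followed the study's cluster numbers and names. In the NG2 table these were activated pericytes (cluster 0), canonical pericytes (clusters 1, 2 and 10), smooth muscle cells (SMCs, cluster 3), mature oligodendrocytes (OLs, cluster 4), endothelial cells (cluster 5), oligodendrocyte progenitor cells (OPCs, cluster 6), radial glia-like progenitors (RGPs, cluster 7), mesenchymal-like pericytes (cluster 8) and microglia (cluster 9). In the Tbx18 table they were endothelial cells (cluster 0), SMCs (cluster 1), canonical pericytes (cluster 2), fibroblasts (cluster 5) and glial precursors (cluster 6), beside clusters 3 and 4. Marker genes went against the labels in some cells. The 76 naïve cells of Tbx18 cluster 3, named microglia by the study, held 21173 CPM (counts per 1000000 counts) of an 8-gene pericyte list and 328 CPM of a 7-gene microglia list, with C1qb, C1qc, Tmem119 and Cx3cr1 at 0. In Tbx18 cluster 4, named vascular-genic pericytes, it was the injured cells that went against the name. They held 121 and 13.8 CPM of the pericyte list after physical and ischemic injury, with Abcc9 at 0 in both. The 157 naïve cells there held 15987 CPM of the list. The 17 naïve cells of NG2 cluster 7, named RGPs, held 13582 CPM of the pericyte list and were too few to use. Clusters 3 and 4 of the Tbx18 line and cluster 7 of the NG2 line were therefore not compared between naïve and injured libraries.

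Levels below are CPM, that is the unique molecular identifier (UMI) counts of a gene summed over the cells of 1 cluster in 1 library, per 1000000 UMIs of those cells. The reads came from the 3' ends of transcripts, so a level is compared only with other levels of the same gene. The libraries held 686 to 4306 cells and 3153996 to 54276245 UMIs, and the median cell had 2806 to 9232 UMIs. No 2 libraries shared more than 5 cell barcodes.

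Pdgfb, the ligand that recruits pericytes, had its highest level in endothelial cells. After physical injury in the NG2 line, its interval there overlapped that of microglia. In the NG2 line its endothelial level was 342 CPM (298 to 390) in the naïve library, 226 CPM (211 to 242) after physical injury and 205 CPM (192 to 218) after ischemic injury. The naïve interval lay above both injured intervals, and the log2 ratios to the naïve library were -0.60 (-0.81 to -0.37) and -0.74 (-0.95 to -0.52). In Tbx18 endothelial cells the levels were 298, 284 and 292 CPM, and neither injured library differed from the naïve one beyond counting error. Oligodendrocytes served as the background for free RNA, since they should lack the ligand: their Pdgfb level was at most 0.57 CPM in the NG2 libraries. They were deep cells, and whether free RNA gives as low a CPM in shallower cells was not tested.

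Microglia held the next highest level of Pdgfb in the NG2 line. Their level was 207 CPM (171 to 248) in 36 cells after physical injury and 105 CPM (94.5 to 116) in 164 cells after ischemic injury, a log2 ratio of -0.98 (-1.28 to -0.67). The 18 naïve microglia held 224 CPM. The injured cells of Tbx18 cluster 3, which carried antigen-presentation and microglia genes, held 41.7 and 44.8 CPM. In SMCs of the NG2 line Pdgfb was 41.4 CPM in the naïve library, 18.5 CPM after physical injury and 21.2 CPM after ischemic injury. The injured libraries lay together below the naïve one, with log2 ratios of -1.16 (-1.67 to -0.67) and -0.97 (-1.46 to -0.50). Tbx18 SMCs showed another order, with 12.2, 24.2 and 82.4 CPM, but the first and last values rest on 6 and 18 UMIs. The 7-gene endothelial list in the same sums was 71.4, 182 and 1103 CPM, and its part in the Pdgfb values was not tested.

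Pdgfd, which acts on PDGFRβ, shared the endothelial cells with Pdgfb and was also counted in SMCs. In NG2 endothelial cells it was 381 CPM (335 to 432) in the naïve library, 423 CPM (402 to 445) after physical injury and 212 CPM (199 to 225) after ischemic injury. The ischemic library stood apart, with a log2 ratio of -0.999 (-1.12 to -0.88) to the physical one and -0.85 (-1.05 to -0.64) to the naïve one. Tbx18 endothelial cells held 541 CPM in the naïve library, 396 CPM after physical injury and 474 CPM after ischemic injury. There the ischemic library was above the physical one, by 0.26 (0.21 to 0.32) on the log2 scale. Red-cell transcripts in the same endothelial sums were 701, 8249 and 9118 CPM in the NG2 line and 33.7, 3758 and 3693 CPM in the Tbx18 line, in the order naïve, physical, ischemic. Their part in these differences was not tested.

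In NG2 SMCs Pdgfd was 111 CPM (101 to 122) in the naïve library, 167 CPM (151 to 184) after physical injury and 58.8 CPM (49.4 to 69.6) after ischemic injury. No interval overlapped another, and the log2 ratio of ischemic to physical injury was -1.51 (-1.80 to -1.22). For ischemic injury over naïve the log2 ratio was -0.92, but its 7 alternatives reached from -0.91 to -0.04. In Tbx18 SMCs the levels were 95.9, 178 and 119 CPM. Physical injury was again the highest, 0.89 (0.47 to 1.34) above the naïve library on the log2 scale, but after thinning to 1000 UMIs per cell the sign turned, to -0.12. Mesenchymal-like pericytes of the NG2 line held 51.4 CPM in the naïve library, 26.3 CPM after physical injury and 1.62 CPM, or 4 UMIs, after ischemic injury. The other pericytes of the NG2 line had next to no Pdgfd, at most 0.83 CPM in clusters 0, 1, 2 and 10.

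Pdgfa, the ligand of PDGFRα that OPCs depend on, was a gene of SMCs and mesenchymal-like pericytes. In NG2 SMCs it was 437 CPM (417 to 458) in the naïve library, 347 CPM (324 to 371) after physical injury and 452 CPM (425 to 481) after ischemic injury. The naïve and ischemic libraries overlapped, and the physical library lay below both, although thinning brought its log2 ratio to the naïve library from -0.33 to -0.13. Mesenchymal-like pericytes followed the same order with 325, 234 and 310.0 CPM. Clusters 0, 1 and 2 pooled, the bulk of the NG2 pericytes, also had their lowest level after physical injury, with 77.3, 55.1 and 72.4 CPM and a log2 ratio of -0.49 (-0.68 to -0.30) to the naïve library.

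Oligodendrocytes, which are made from OPCs, carried Pdgfa at 147 CPM (127 to 169) in the naïve library, 101 CPM after physical injury and 90.4 CPM after ischemic injury. Both injured libraries were below the naïve one. OPCs themselves held 42.2, 39.4 and 45.3 CPM and did not differ between libraries beyond counting error. RGPs held 72.2 CPM after physical injury and 107 CPM after ischemic injury, a log2 ratio of 0.57 (0.23 to 0.94), with 7 alternatives from 0.14 to 1.03. Microglia held 123 CPM after physical injury and 51.7 CPM after ischemic injury, and endothelial cells held 98.8, 44.98 and 66.2 CPM across the naïve, physical and ischemic libraries. In the Tbx18 line SMCs held 386, 367 and 266 CPM, so that the ischemic library was the lowest, on 58 UMIs in 47 cells.

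Pdgfc, another ligand of PDGFRα that is secreted in a latent form, had low counts and came from SMCs and the oligodendrocyte lineage. NG2 SMCs held 41.9 CPM (35.7 to 48.9) in the naïve library, 55.2 CPM (46.2 to 65.4) after physical injury and 49.3 CPM (40.7 to 59.2) after ischemic injury. The physical library was above the naïve one by 0.40 (0.06 to 0.74) on the log2 scale, and the ischemic library overlapped both. Oligodendrocytes held 28.3, 42.5 and 36.9 CPM, OPCs 28.1, 28.0 and 31.1 CPM, and RGPs 20.6 and 18.1 CPM after physical and ischemic injury. Endothelial levels were at most 0.27 CPM in the NG2 line and 1.30 CPM in the Tbx18 line. Tbx18 SMCs held 53.7 CPM after physical injury on 463 UMIs, whereas the naïve and ischemic values of 6.12 and 13.7 CPM rest on 3 UMIs each.

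Pdgfc and Pdgfd, which were both counted in SMCs along with Pdgfa, lie at chr3:81036416-81214040 and chr9:6168584-6378850 (mm10, both on the plus strand). The 200 bases before the RefSeq start of each are shown because these windows lay outside annotated exons and held a searched motif, whereas those of Pdgfa overlapped exons. One of the motifs, the CArG box, is the site of serum response factor and is found near the start of many SMC genes. The coordinates of the genes are from GENCODE, whose start of Pdgfd lies downstream of the RefSeq start used for its window. The sequences are from RefSeq (GRCm38.p6, plus strand), and capitals mark a CArG box in Pdgfc and the letters TATAAA in Pdgfd.
Pdgfc chr3:81036216-81036415: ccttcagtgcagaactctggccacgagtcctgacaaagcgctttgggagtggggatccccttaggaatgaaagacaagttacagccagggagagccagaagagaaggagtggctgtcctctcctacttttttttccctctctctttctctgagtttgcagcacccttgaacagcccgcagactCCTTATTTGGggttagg
Pdgfd chr9:6168286-6168485: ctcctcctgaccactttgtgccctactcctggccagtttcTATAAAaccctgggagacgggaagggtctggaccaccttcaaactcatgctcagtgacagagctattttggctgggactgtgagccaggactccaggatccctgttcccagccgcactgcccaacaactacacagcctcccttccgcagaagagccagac

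The CArG box of Pdgfc ended 7 bases before the RefSeq start, and the TATAAA of Pdgfd 154 bases before it. Each of 4 motifs was searched on both strands of all 32851 windows of 300 bases, 250 before and 50 after a start. A CArG box was present in 1.63% of them, TATAAA in 13.6%, the GC box GGGCGG in 35.7% and the Egr1 site GCGGGGGCG in 2.91%. The Pdgfra window held none of the 4, and the windows at both listed starts of Pdgfa held GC boxes. A match describes the letters in the window and was not tied to binding.

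**Figure D1:**
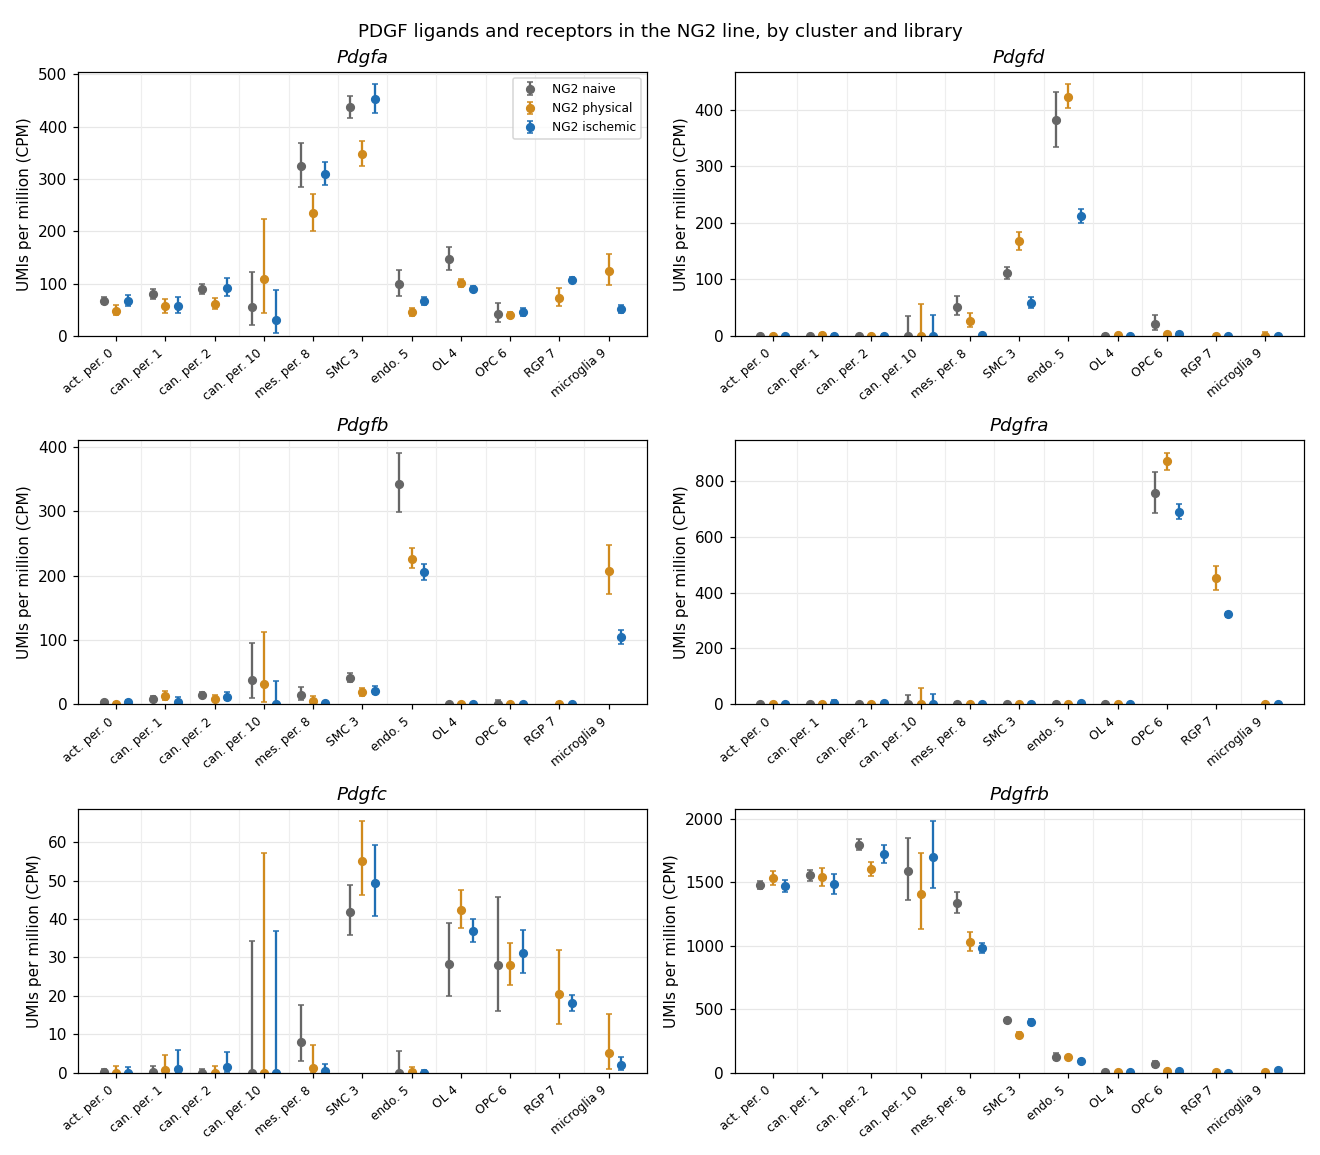
Levels of the 6 genes in the NG2 line, in CPM on a linear axis with its own range in each panel, by cluster of at least 20 cells, with points for the naïve, physical and ischemic libraries and bars for the 95% counting interval. Pdgfb and Pdgfd peak in endothelial cells (up to 342 and 423 CPM), Pdgfa in SMCs (up to 452 CPM), Pdgfra in OPCs (up to 869 CPM) and Pdgfrb in pericytes (up to 1796 CPM).

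Pdgfrb, the receptor that defines mural cells, marked the pericytes of both lines. In the NG2 line clusters 0, 1, 2 and 10 held 1412 to 1796 CPM across the 3 libraries. Clusters 0, 1 and 2 together held 1599 CPM in the naïve library, 1566 CPM after physical injury and 1547 CPM after ischemic injury, so that the log2 ratios to the naïve library were -0.03 and -0.05. Cluster 2 had the highest pericyte level in all 3 NG2 libraries, with 1796, 1604 and 1721 CPM, although its interval overlapped the next cluster's in each of them.

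Mesenchymal-like pericytes held 1339 CPM (1257 to 1425) in the naïve library, 1032 CPM (961 to 1107) after physical injury and 983 CPM after ischemic injury, with log2 ratios of -0.38 (-0.51 to -0.24) and -0.45 (-0.55 to -0.34). All 7 alternatives for each were nearer to 0, down to -0.06 and -0.13 without cells that held markers of another type. SMCs held 414, 298 and 399 CPM, again lowest after physical injury. The Tbx18 line gave lower pericyte levels after injury, with 1613 CPM (1549 to 1678) in the naïve library, 1008 CPM (958 to 1061) after physical injury and 1135 CPM (1027 to 1252) after ischemic injury. The log2 ratios were -0.68 (-0.77 to -0.58) and -0.51 (-0.66 to -0.35), and without cells that held markers of another type they were -0.33 and -0.27. Tbx18 SMCs held 578, 233 and 394 CPM, in which the physical library was lowest, at -1.31 (-1.49 to -1.12) against the naïve one. The pericyte list in these SMC sums was also lowest after physical injury, at 8599, 3090 and 9051 CPM. Its ischemic value was above the naïve one, whereas that of Pdgfrb was below, and the part of the list in the difference was not tested.

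The share of cells with a Pdgfrb UMI was compared after each cell was thinned to 1000 UMIs. In NG2 cluster 0 it was 76.2%, 77.4% and 73.5% in the naïve, physical and ischemic libraries, against 98.7%, 100% and 99.2% without thinning. Oligodendrocytes, which should lack the receptor, gave 1.01%, 1.03% and 1.05% on the thinned scale, with median depths of 13252 to 29600.5 UMIs against 4122 to 4944 UMIs in cluster 0 before thinning. In Tbx18 pericytes the thinned share was 78.0% (72.01 to 83.3) among naïve cells, 60.8% (55.5 to 65.9) with physical and 65.3% (53.5 to 76.0) with ischemic injury. The naïve and physical intervals did not overlap. Unthinned, these shares were 97.8%, 70.7% and 77.9%.

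In Tbx18 endothelial cells and in OPCs, Pdgfrb was lower after injury together with pericyte markers. Endothelial cells of the Tbx18 line held 115 CPM in the naïve library and 4.79 and 0.99 CPM after physical and ischemic injury, while the pericyte list there was 3878, 361 and 105 CPM. NG2 endothelial cells held 127, 125 and 97.4 CPM of Pdgfrb with 5462, 3680 and 3289 CPM of the pericyte list. There Pdgfrb was nearly level between the naïve and physical libraries in the main setting, with a log2 ratio of -0.03, while the list was lower. The 7 alternatives for that Pdgfrb ratio reached from -2.50 to 1.21, so its direction depended on the setting. OPCs held 66.8, 13.5 and 14.4 CPM of Pdgfrb with 1833, 243 and 296 CPM of the list. Tbx18 fibroblasts held 190 CPM of Pdgfrb after physical injury, with 3351 CPM of the list. Whether the naïve values belong to the endothelial cells and OPCs themselves was not tested.

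Pdgfra, the receptor through which PDGF-A drives OPC division, was high in 3 kinds of cell. OPCs held 756 CPM (686 to 831) in the naïve library, 869 CPM (840.0 to 899.7) after physical injury and 689.9 CPM (664 to 716) after ischemic injury. Physical injury was the highest, with a log2 ratio of 0.20 (0.06 to 0.35) over the naïve library, and the ischemic library lay below it, with a log2 ratio of -0.33 (-0.41 to -0.26). By the mean of each cell's own CPM the first ratio was 0.50. The thinned share of OPCs with a UMI followed the same order, at 49.5%, 58.4% and 45.8%. RGPs held 452 CPM (410 to 496) after physical injury and 322 CPM (313 to 331) after ischemic injury, a log2 ratio of -0.49 (-0.63 to -0.34). The 7 alternatives for this ratio reached from -1.08 to -0.05. Tbx18 fibroblasts held 863 CPM in 116 cells after physical injury, and the naïve and ischemic libraries had 5 and 10 such cells. Pericytes of the NG2 line held at most 6.41 CPM.

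**Figure D2:**
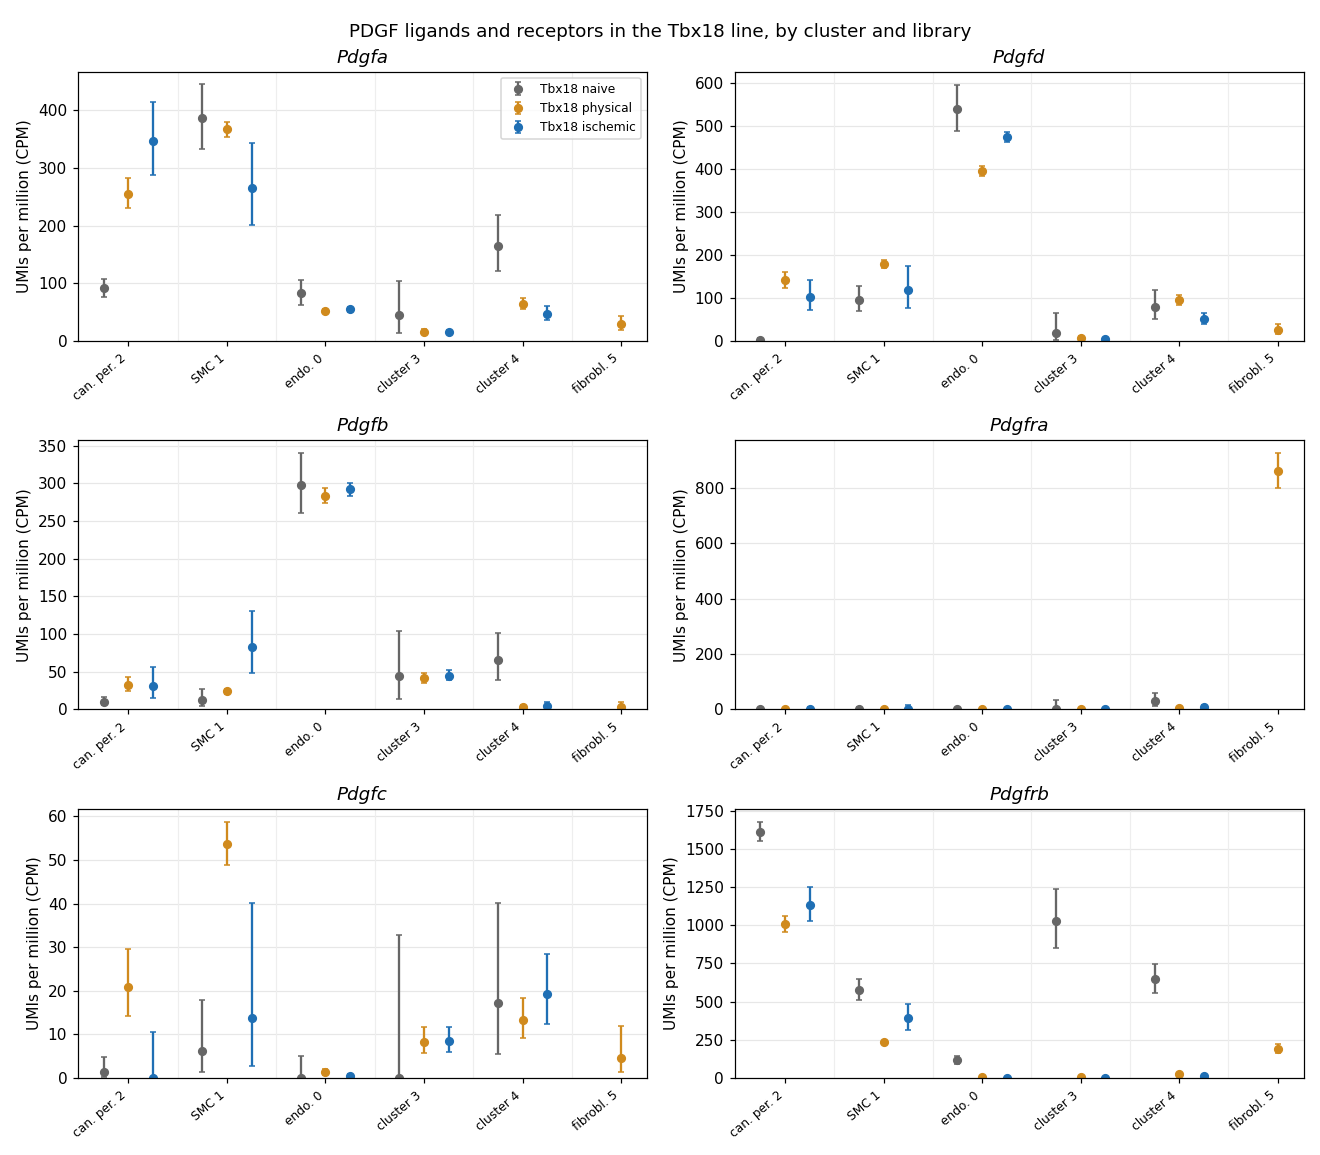
Levels of the 6 genes in the Tbx18 line, in CPM on a linear axis with its own range in each panel, by cluster of at least 20 cells, with points for the 3 libraries and bars for the 95% counting interval. Canonical pericytes show Pdgfd at 2.02, 141 and 102.2 CPM and Pdgfrb at 1613, 1008 and 1135 CPM in the naïve, physical and ischemic libraries.

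In the canonical pericytes of the Tbx18 line all 4 ligands had higher levels with physical injury than without injury. With ischemic injury this held for Pdgfa, Pdgfb and Pdgfd but not for Pdgfc. Pdgfa was 91.5 CPM in the naïve library, 255 CPM after physical injury and 346 CPM after ischemic injury, with log2 ratios of 1.48 (1.19 to 1.77) and 1.92 (1.56 to 2.28) to the naïve library. Pdgfd was 2.02 CPM, or 3 UMIs, in 226 naïve cells, 141 CPM in 433 cells after physical injury and 102.2 CPM in 86 cells after ischemic injury. Pdgfb was 10.1, 33.0 and 31.2 CPM, and Pdgfc was 1.34, 20.9 and 0 CPM, where the floor of 3 UMIs allows up to 8.51 CPM and the 95% interval reaches 10.47 CPM. The intervals of the ratios to the naïve library excluded 0 for all 4 ligands after physical injury and for Pdgfa, Pdgfb and Pdgfd after ischemic injury. The injured pericytes were shallower. Their median depth was 2540 UMIs with physical and 3791.5 UMIs with ischemic injury, against 6547.5 UMIs among naïve pericytes. Tbx18 SMCs with physical injury had a median of 10561 UMIs. Whether free RNA weighed more in the shallower pericytes was not tested.

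A member was counted as past 2-fold when the ratio of CPM plus 1 exceeded 2 and the pair of libraries held at least 10 UMIs. In Tbx18 pericytes 4 of 5 members that had enough UMIs were past 2-fold upwards after physical injury, where 9.46% of all genes were. After ischemic injury it was 3 of 4 members and 8.53% of genes. Both comparisons used the same naïve library. Markers of other cells moved with these ligands. The 6-gene smooth muscle list was 1980, 5999 and 3048 CPM in the same cells, the endothelial list 168, 911 and 1274 CPM, and the pericyte list 30482, 19997 and 19244 CPM, and their part in the ligand values was not tested. A filter on 1 marker gene per other type, such as Acta2 and Cldn5, removed cells with 2 or more raw UMIs of these genes. It was not scaled to depth and did not use the lists above, so RNA of other types could remain. Without the removed cells, the log2 ratio of physical injury to naïve was 1.32 for Pdgfa, 5.38 for Pdgfd and 0.33 for Pdgfb. The ratio of ischemic injury to naïve was then 1.84 for Pdgfa and 3.14 for Pdgfd.

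The NG2 pericytes differed less. In clusters 0, 1 and 2 together none of the 4 members tested was past 2-fold in any of the 3 comparisons, against 1.37%, 2.57% and 3.15% of all genes for physical over naïve, ischemic over naïve and ischemic over physical. In NG2 SMCs 1 of 5 members was past 2-fold for physical over naïve, the lower Pdgfb, where 3.25% of genes were past it either way. For ischemic over physical it was again 1 of 5, the lower Pdgfd, against 4.57%, and for ischemic over naïve 0 of 6 against 3.75%. In NG2 endothelial cells the lower Pdgfa was the 1 of 5 for physical over naïve, where 3.29% of genes were lower past 2-fold. Mesenchymal-like pericytes had 2 of 4 members lower for ischemic over naïve, Pdgfb and Pdgfd, with 11.3% of genes lower, and OPCs had 2 of 5 lower after each injury, Pdgfd and Pdgfrb, with 5.34% and 4.93% of genes lower.

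In the Tbx18 SMCs more genes of every kind were past 2-fold. After physical injury Pdgfc was the higher member and Pdgfrb the lower one, against 12.4% and 10.7% of all genes. After ischemic injury Pdgfb was the 1 of 4 members past 2-fold, with 7.74% of genes higher. The ischemic and naïve values rest on 47 and 63 SMCs.

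**Figure D3:**
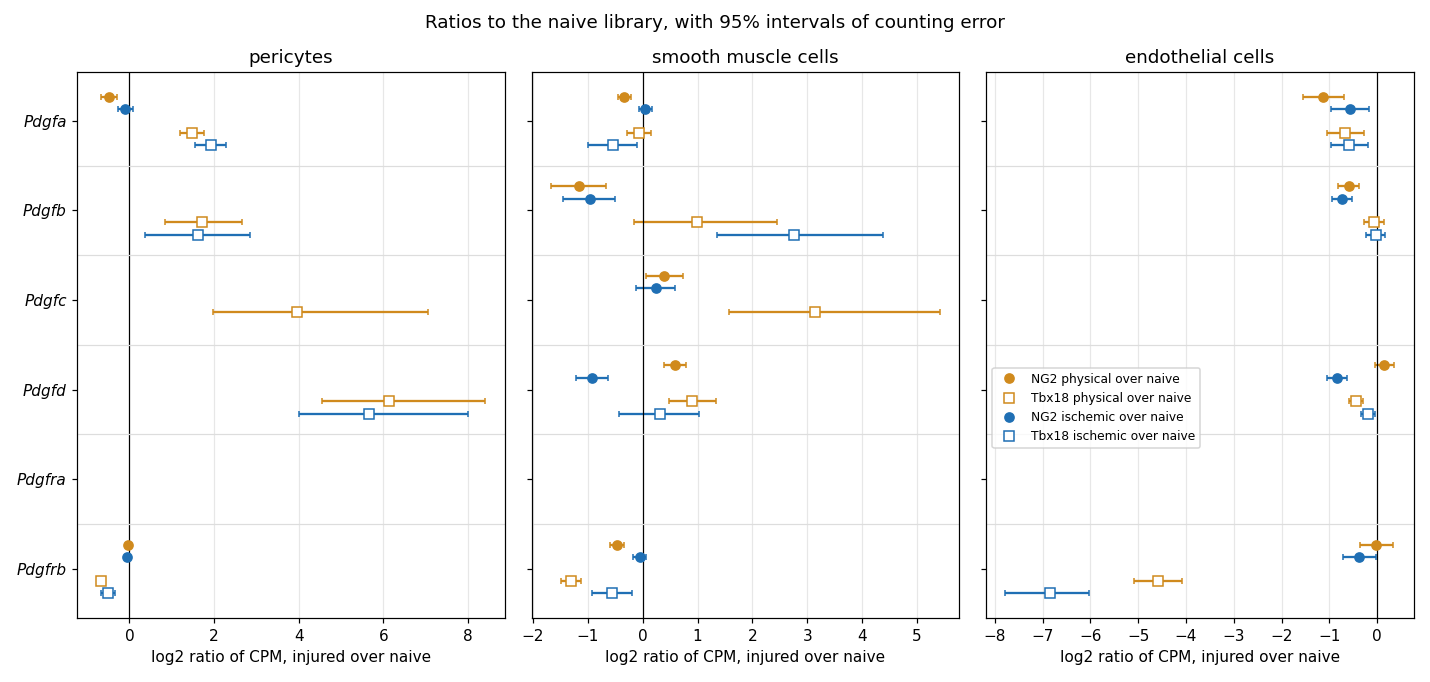
Log2 ratios of the injured to the naïve libraries in pericytes, SMCs and endothelial cells, by gene, with filled circles for the NG2 line and open squares for the Tbx18 line, for pairs with at least 20 CPM in 1 library and 10 UMIs in all, with bars for the 95% counting interval and a line at 0. Pericytes are clusters 0, 1 and 2 of the NG2 line, without the mesenchymal-like ones, and cluster 2 of the Tbx18 line. Pdgfa in pericytes lies at -0.49 in the NG2 line and 1.48 in the Tbx18 line for physical injury over naïve.

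The share of each gene's UMIs that a cell type held depended on how many of its cells were sorted. In the NG2 line the pericyte clusters 0, 1, 2, 8 and 10 made up 80.4%, 47.2% and 38.1% of the cells of the naïve, physical and ischemic libraries, and they held 92.5%, 87.7% and 85.3% of the Pdgfrb UMIs. Most UMIs of the PDGF-B and PDGF-D receptor thus lay in pericytes in all 3 libraries, although pericytes made up fewer of the cells after injury. The shares of its ligands shifted between cell types. Endothelial cells held 40.3%, 79.8% and 67.3% of the Pdgfb UMIs in the same order of libraries, and 33.4%, 77.6% and 85.6% of the Pdgfd UMIs. SMCs held 59.6%, 20.2% and 11.6% of the Pdgfd UMIs, so SMCs held most of them in the naïve library and endothelial cells in both injured ones.

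For the PDGFRα ligands SMCs held 52.7%, 33.8% and 17.4% of the Pdgfa UMIs in the naïve, physical and ischemic libraries. The pericyte clusters held 38.3%, 19.3% and 18.3% of them, oligodendrocytes 5.95%, 28.6% and 26.01%, and RGPs 2.81% and 27.01% after physical and ischemic injury. SMCs held 72.8%, 23.7% and 9.8% of the Pdgfc UMIs, and oligodendrocytes held 16.5%, 52.9% and 55.04% of them. Of the Pdgfra UMIs, OPCs held 91.1%, 87.7% and 35.4% and cluster 7 2.5%, 11.7% and 63.3%, of which the naïve value rests on the 17 cells with pericyte markers, so RGPs held more of the receptor's UMIs than OPCs in the ischemic library although their CPM was lower. Of the Pdgfb UMIs outside endothelial cells, microglia held 7.6%, 11.4% and 26.1% of the gene's total, SMCs 29.8%, 4.302% and 3.39%, and the pericyte clusters 22.4%, 4.11% and 2.14%.

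In the Tbx18 line endothelial cells held 82.8%, 88.9% and 94.9% of the Pdgfb UMIs and 83.9%, 70.3% and 97.7% of the Pdgfd UMIs in the naïve, physical and ischemic libraries. SMCs held 43.1%, 71.0% and 5.4% of the Pdgfa UMIs, in step with their 63, 827 and 47 cells. Pericytes held 77.7%, 39.2% and 74.2% of the Pdgfrb UMIs and SMCs 9.2%, 52.7% and 15.96%. These shares follow the sort and the cells that were captured, and the numbers of cells in the tissue were not measured.

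**Figure D4:**
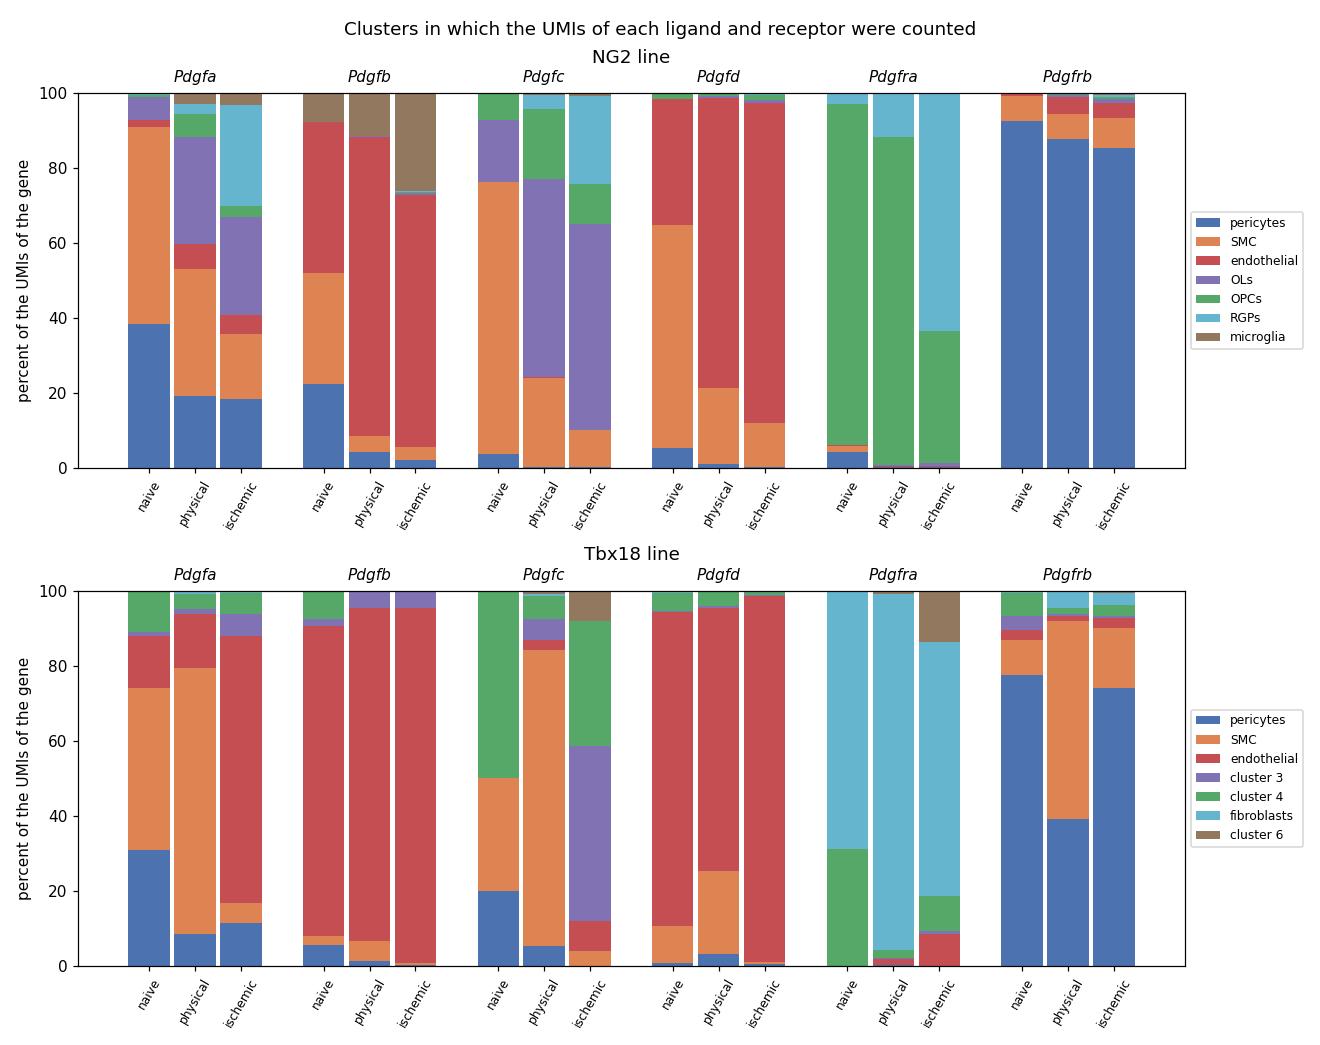
Share of each gene's UMIs, in percent, held by each cell type in each of the 6 libraries, as stacked bars that sum to 100%. The endothelial part of Pdgfd in the NG2 line is 33.4%, 77.6% and 85.6% in the naïve, physical and ischemic libraries, and the SMC part is 59.6%, 20.2% and 11.6%.

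UMIs of 2 members were also counted under the same cell barcode. These shares were not thinned, the doublet caller did not work on these libraries, and the part of doublets in them was not tested. In NG2 endothelial cells 53.5%, 59.7% and 49.7% of cells held UMIs of both Pdgfb and Pdgfd, where the product of the single shares was 50.02%, 57.0% and 45.9%. In Tbx18 endothelial cells it was 35.2%, 54.3% and 68.3%, with products of 25.3%, 50.03% and 65.1%. The share with both was above the product in every library, although the product takes no account of the unequal depth of cells. Among NG2 SMCs 79.1%, 77.3% and 75.5% held both Pdgfa and Pdgfrb, with products of 77.7%, 74.1% and 73.2%, PDGF-A as a dimer of its own not being a ligand of that receptor. RGPs after ischemic injury held Pdgfa and its receptor Pdgfra together in 66.0% of cells, with a product of 59.3%, and Tbx18 fibroblasts after physical injury held both receptors in 63.8% of cells, with a product of 55.7%. Among NG2 oligodendrocytes, taken as the background, at most 0.338% of cells held both Pdgfb and Pdgfd and 0% held both receptors, with an interval up to 0.621% in the 592 ischemic cells. Oligodendrocytes carry Pdgfa themselves, and at most 4.73% of them held it with Pdgfrb and 3.38% with Pdgfra.

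The naïve cells of both lines were also clustered together, in a table with 14 clusters of its own numbering, which served to compare the lines without injury. By their markers clusters 0, 1, 2, 3 and 8 were pericyte-like, cluster 4 was smooth-muscle-like and clusters 10 and 13 endothelial-like. Pdgfrb was 1407 to 1876 CPM in the pericyte-like clusters of the NG2 line and 1444 to 1836 CPM in those of the Tbx18 line. Cluster 7 held 34225 and 22122 CPM of the pericyte list in the NG2 and Tbx18 lines, but also 515 and 2344 CPM of the fibroblast list, which stood furthest above its mean over clusters, and it was left without a name. Cluster 5 shared their Pdgfrb, with 1415 and 1516 CPM, but held 302 CPM of Pdgfa in the NG2 line and 256 CPM in the Tbx18 line, against 53.9 to 92.0 CPM and 44.2 to 87.7 CPM in the pericyte-like clusters and 426 and 389 CPM in cluster 4. Pdgfd did not go with it, at 4.31 and 17.5 CPM in cluster 5 and 124 and 101 CPM in cluster 4. The smooth muscle list in cluster 5 was 6786 and 4660 CPM, and of the lists it stood furthest above its mean over clusters there. The Pdgfa level of cluster 5 thus lay above the pericyte-like clusters and below cluster 4 in both lines. In the NG2 line cluster 9 also lay above cluster 5, with 382 CPM (332 to 436) of Pdgfa.

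Between the lines, cluster 4 held Pdgfb at 37.2 CPM in the NG2 line and 7.39 CPM in the Tbx18 line, and Pdgfc at 46.5 and 7.39 CPM. Those 2 of 5 members were lower past 2-fold in the Tbx18 line, where 10.7% of all genes were, and both Tbx18 values rest on 3 UMIs. In cluster 10 Pdgfd was 275 CPM in the NG2 line and 446 CPM in the Tbx18 line, a log2 ratio of 0.70. Pdgfrb there was 172 and 24.2 CPM, with 6835 and 1768 CPM of the pericyte list. Of 4 members tested in cluster 10, Pdgfa was higher and Pdgfrb lower past 2-fold in the Tbx18 line. Of all genes 9.37% were higher and 9.76% lower. The log2 ratio of Pdgfa was 1.85, with 7 alternatives from 1.07 to 3.41. The only naïve cells of the Tbx18 line outside the mixed cluster 6 with a clear Pdgfra level were the 27 of cluster 7, which held 125 CPM on 14 UMIs, in a sum that also held the fibroblast transcripts given above.

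**Figure D5:**
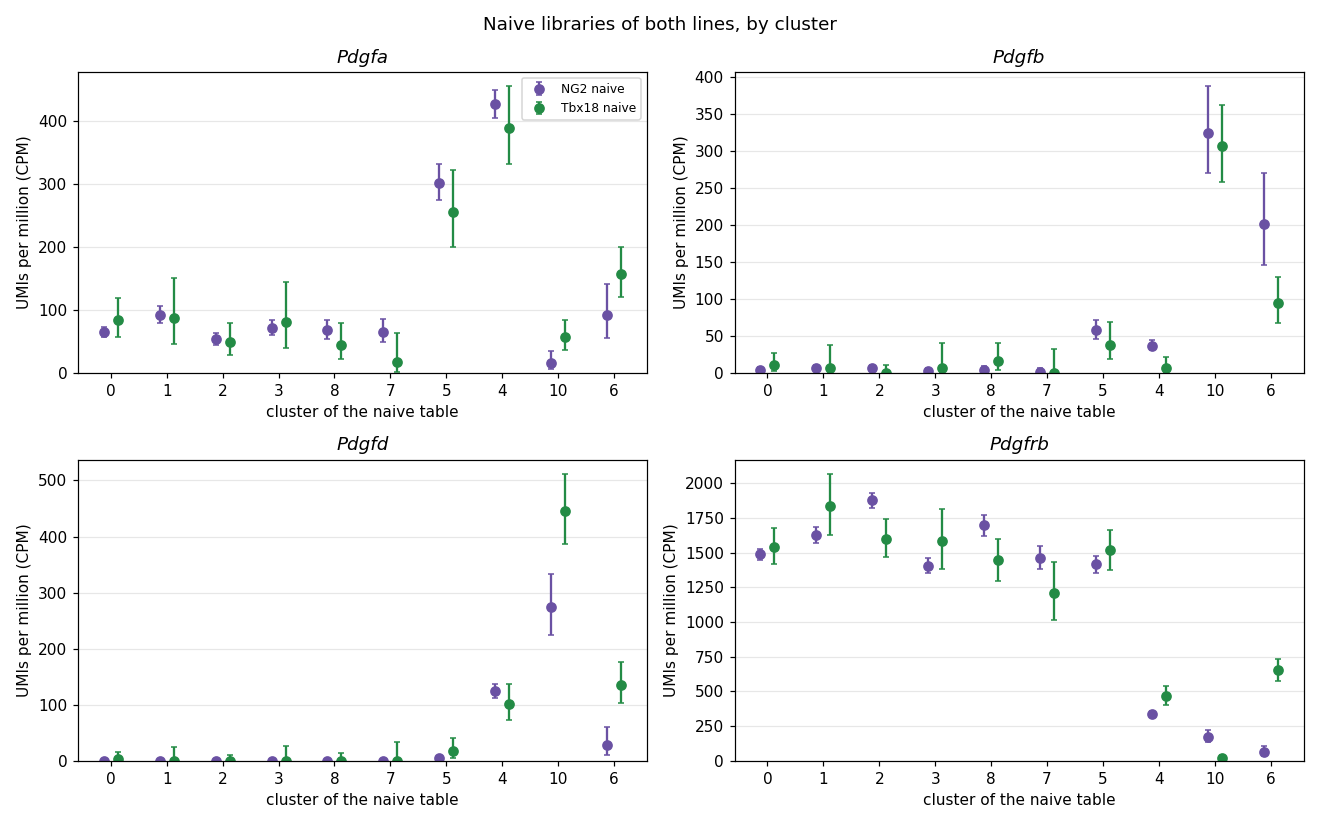
Levels of Pdgfa, Pdgfb, Pdgfd and Pdgfrb in the naïve libraries of the NG2 and Tbx18 lines, in CPM on a linear axis, by cluster of the naïve table with at least 20 cells of each line, with points for the libraries and bars for the 95% counting interval. Cluster 5 carries Pdgfrb at 1415 and 1516 CPM and Pdgfa at 302 and 256 CPM.

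Beyond the ligands and receptors, 44 genes that process PDGF ligands, bind them, carry the receptor's signal or respond to it were described. In NG2 pericytes of clusters 0, 1 and 2, 42 of them had enough UMIs for physical over naïve, and 0 were higher and 3 lower past 2-fold, where 0.8% of all genes were lower, with a median log2 ratio of 0.06 against -0.02 over all genes. For ischemic over naïve 2 were higher, against 1.71% of all genes, and 0 lower. For ischemic over physical 4 of 41 were higher, against 2.05% of all genes, and 0 lower. Egr1, an early target of the pathway, was 1843, 646 and 2457 CPM in the naïve, physical and ischemic libraries, and Fos, another, was 5125, 2118 and 5853 CPM. Both are also induced by the dissociation of tissue, and its part was not tested. The chemokine Cxcl1 was 31.7, 20.2 and 97.2 CPM, and Stat3, which relays cytokine and growth factor signals, was 93.2, 87.5 and 133 CPM.

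In mesenchymal-like pericytes 3 of 41 list genes were higher and 3 lower for physical over naïve, and 3 and 2 of 42 for ischemic over naïve, where 15.4% and 20.2% of all genes were past 2-fold either way. Thbs1, a matrix protein that binds PDGF, was 5.41, 82.9 and 96.8 CPM. Plat, the protease that activates PDGF-C, was 430 CPM in the naïve library and 1045 CPM after ischemic injury, and Plau, which activates PDGF-D, was 46.0, 25.01 and 105 CPM. Ccl2, a chemokine induced by PDGF in fibroblasts, was 300.3, 84.3 and 369 CPM. In the NG2 endothelial cells Plat was 332 CPM in the naïve library and 610.2 CPM after physical injury, and Sparc, which binds PDGF-B, was 1253, 1432 and 2269 CPM.

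In Tbx18 pericytes 4 of 42 list genes were higher and 1 lower for physical over naïve, with a median log2 ratio of -0.03 against 0.0024 over all genes, and 5 and 4 of 41 for ischemic over naïve. Of all genes 15.5% and 19.3% were past 2-fold either way. Cxcl1 was 39.7, 383 and 1090 CPM across the 3 libraries, Ccl2 was 3.36, 82.2 and 48.2 CPM, and Stat3 was 173 CPM in the naïve library and 348 CPM after physical injury. Tbx18 SMCs had 1 of 41 genes higher and 6 lower for physical over naïve, against 12.4% and 10.7% of all genes, with a median of -0.33 against -0.07 over all genes. Among these Thbs1 was 67.3 CPM in the naïve library, 178 CPM after physical injury and 36.6 CPM after ischemic injury.

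The genes with the pattern most like each member were sought by Pearson's r of log2(CPM + 1) over 47 sums of cluster and library among 12953 genes. The sums of 1 library share its depth, and r is given as a description. Pdgfrb was most like Vstm4, Pcdh18 and Naalad2, each with r of 0.98. Pdgfra was most like D430019H16Rik (0.94), Spsb4 (0.94) and Gria3 (0.91), the last an AMPA receptor subunit. Pdgfd was most like Casp12 (0.90), Wfdc1 (0.89) and Synpo2 (0.87), and Pdgfb most like Crybg3 (0.85), Cracr2b (0.82) and Mknk2 (0.82). Pdgfc was most like Hr (0.88), Bcl7a (0.86) and Slc4a8 (0.85), and Pdgfa most like Lipg (0.80), Fhl5 (0.79) and Nudt4 (0.78). Among the members themselves the highest r was 0.58, between Pdgfb and Pdgfd. By Spearman's rho none of the genes named for Pdgfb, Pdgfd or Pdgfra ranked among the most alike again. Those of Pdgfra had rho of 0.66, 0.56 and 0.68. Hr and Bcl7a stayed for Pdgfc, Nudt4 for Pdgfa and Naalad2 for Pdgfrb.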

How the data were processed

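The authors sequenced tdT+, DAPI- cortical cells on a droplet platform that reads the 3' ends of transcripts, aligned the reads to GRCm38/mm10 with Cell Ranger (version 7.0.0 per the labels), removed cells with outlying gene numbers or high mitochondrial content, and clustered them in Seurat. They deposited whole-number UMI counts, not normalized, with a library, a cluster and the percent of mitochondrial UMIs for each cell, and these deposited counts and clusters were used as they stand. Raw counts were summed per cluster and library and divided by all UMIs of the same cells to give CPM. Levels have exact Poisson intervals, shares of cells exact Clopper-Pearson intervals, and ratios the exact conditional interval (95%, SciPy 1.17.1, pandas 2.3.3, Python 3.11.15). With 1 pooled library per group no test was run and no p-value is given. Sums of fewer than 20 cells entered no ratio, and with counts of 0 a floor of 3 UMIs was the upper limit. A gene was past 2-fold on CPM + 1 with at least 10 UMIs over both libraries. Only the intervals of levels and ratios were tried on simulated Poisson counts, without differences between libraries, and the other steps were not simulated. Alternatives used TMM (edgeR 4.0.16), DESeq2 size factors (1.42.0), per-cell means, the filters of the methods applied again, thinning to 1000 UMIs, and removal of cells with other markers. Those markers were Cldn5, Acta2, Mog, C1qa, Ptprz1, Vtn and Dcn, without that of a cluster's own type. Cells with 2 or more raw UMIs of them were removed, whatever their depth. Scrublet in scanpy 1.11.5 called 57 of 17033 cells (0.335%), too few for the caller to have worked, so an alternative removed the 460 cells with the highest scores. The members and lists were chosen with earlier results of these data known. By rule the text names the members, up to 4 pathway genes per comparison with the largest ratio and at least 50 CPM, and the 3 genes most like each member.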

Additional observations from a re-analysis of the deposited data

Results flagged for a closer look

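Each member was compared between the lines in pericytes, SMCs and endothelial cells, for each pair of conditions. Pericytes here were clusters 0, 1 and 2 of the NG2 line and cluster 2 of the Tbx18 line. The mesenchymal-like pericytes of the NG2 line were left out, and the Tbx18 line had no cluster of that name. The sets of pericytes compared were therefore not split alike. With at least 20 CPM in a library of each line, 4 comparisons had opposite directions and both counting intervals off 0. The share of all genes that do so was not computed. Each line has 1 library per condition, so the difference between the lines was not tested. Pdgfa in pericytes had a log2 ratio of physical injury to naïve of -0.49 in the NG2 line and 1.48 in the Tbx18 line. The smooth muscle list in these Tbx18 pericytes was 1980 CPM in the naïve library and 5999 CPM after physical injury. Its part was not tested. Pdgfb in SMCs had a log2 ratio of ischemic injury to naïve of -0.97 in the NG2 line and 2.75 in the Tbx18 line, the latter on 18 and 6 UMIs, while the endothelial list in these Tbx18 SMC sums was 1103 CPM after ischemic injury and 71.4 CPM in the naïve library, and its part was not tested. Pdgfa in SMCs had a log2 ratio of ischemic to physical injury of 0.38 in the NG2 line and -0.47 in the Tbx18 line. After thinning to 1000 UMIs per cell the NG2 value was 0.090, and the Tbx18 ischemic library held only 47 SMCs. Pdgfd in endothelial cells had a log2 ratio of ischemic to physical injury of -0.999 in the NG2 line and 0.26 in the Tbx18 line.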

How the results depend on the processing

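Of 1015 alternative values for 152 ratios, 893 stayed within the interval of the main value and 122 moved out of it. Of the 92 ratios whose interval excluded 0, 598 of 607 alternative values kept their sign. The cause of the shifts was not tested. Values that moved are listed below only for the cluster where a member was highest in its table. The other changes of sign follow, only for ratios whose interval excluded 0. Thinning to 1000 UMIs moved 54 of 139 values, among them for Pdgfrb in NG2 cluster 2 to -0.33 (physical over naïve) and -0.16 (ischemic over naïve), for Pdgfa in NG2 SMCs to -0.13 (physical over naïve) and 0.090 (ischemic over physical), for Pdgfc there to 0.77 (physical over naïve), for Pdgfd in NG2 endothelial cells to -1.17 (ischemic over physical), for Pdgfra in OPCs to 0.36 (physical over naïve) and -0.51 (ischemic over physical), for Pdgfd in Tbx18 endothelial cells to 0.32 (ischemic over physical), for Pdgfa in Tbx18 SMCs to 0.31 (physical over naïve), for Pdgfrb in Tbx18 pericytes to -0.39 (physical over naïve) and -0.26 (ischemic over naïve), and between naïve lines for Pdgfa in cluster 4 to 0.11 and for Pdgfd in cluster 10 to 1.09. The mean of per-cell CPM gave -0.11 for Pdgfa in NG2 SMCs (ischemic over naïve), 0.50 (physical over naïve) and 0.14 (ischemic over naïve) for Pdgfra in OPCs, -0.15 and 0.13 for Pdgfd in Tbx18 endothelial cells (physical and ischemic over naïve), and 0.17 for Pdgfa in Tbx18 SMCs (physical over naïve). The filters applied again gave 0.50, 0.038 and -0.46 for Pdgfra in OPCs (physical and ischemic over naïve, ischemic over physical) and -0.21 and 0.075 for Pdgfd in Tbx18 endothelial cells (physical and ischemic over naïve), so the direction of the last differed from the main -0.19. Without cells that held other markers, Pdgfrb in Tbx18 pericytes was -0.33 (physical over naïve) and -0.27 (ischemic over naïve). Among ratios whose interval excluded 0, thinning also changed the sign of Pdgfa in NG2 cluster 0 (0.03, physical over naïve) and cluster 8 (-0.17, ischemic over physical). It did so too for Pdgfd in Tbx18 SMCs (-0.12, physical over naïve). The filters did so for Pdgfrb in NG2 endothelial cells (0.84, ischemic over naïve). Per-cell means did so for Pdgfa in Tbx18 pericytes (-0.05, ischemic over physical). There was 1 change each in Tbx18 cluster 4 (0.27) and naïve cluster 6 (-0.08).

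In NG2 pericytes of clusters 0, 1 and 2 the genes past 2-fold numbered 194, 363 and 415 (physical over naïve, ischemic over naïve, ischemic over physical), 92, 152 and 138 with at least 50 UMIs, and 37, 51 and 70 with 5 CPM added. In Tbx18 endothelial cells they numbered 2539, 2547 and 176, then 1092, 1130 and 96 with at least 50 UMIs and 802, 814 and 33 with 5 CPM added. Of the pathway list 7, 5 and 2 were past 2-fold there, with 3 and 1 for physical over naïve and ischemic over physical at 50 UMIs, and 2, 2 and 0 with 5 CPM added. The log2 shifts of TMM scaling, which were subtracted from every ratio, were -0.13 and -0.10 in Tbx18 endothelial cells (physical and ischemic over naïve). They were -0.21 and 0.23 in Tbx18 SMCs (physical over naïve, ischemic over physical) and -0.22 in NG2 cluster 8 (ischemic over naïve). RGPs and NG2 microglia had -0.13 (ischemic over physical), and naïve cluster 4 had 0.12. A negative shift thus raised the ratios, and a positive one lowered them. No paired analysis was possible because each group is 1 pooled library and no test was run. Depth limits Pdgfc and Pdgfb in Tbx18 SMCs and pericytes, where a library held 18 UMIs or fewer.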
